A study of Mus musculus with 3 samples.

Results

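The transcript of the transcription factor gene Myc and those of 9 genes commonly listed among its growth-related targets were followed through single cells of mouse arteries. The 10 genes, of 32285 in the deposited matrices, were Myc, Odc1, Ncl, Nolc1, Nop56, Nop58, Srm, Npm1, Slc25a33 and Polr1b. They were chosen by name with earlier values of these libraries known, among them the level of Myc in smooth muscle of the vehicle and sunitinib libraries. Their values in that comparison are therefore a description. The question asked of them was whether the target transcripts followed that of Myc. MYC protein and its activity were not measured. In smooth muscle Myc stood 3.84-fold lower in the sunitinib library than in the vehicle library, 8 of the 9 targets stayed within 1.5-fold, and Slc25a33 stood 3.01-fold higher. Most genes stayed within that limit as well, since of 12673 genes 5.59% stood at least 1.5-fold higher and 3.56% lower.

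MYC is a basic helix-loop-helix leucine zipper protein that binds DNA as a dimer with MAX, at E-box sequences, and recruits cofactors that raise transcription. Its best known targets serve cell growth: ribosome assembly in the nucleolus, transcription of ribosomal DNA by RNA polymerase I, polyamine and nucleotide synthesis, and mitochondrial function. Its own transcript and protein are short-lived, and the gene is induced within the first hour by growth factors, as the immediate early genes are. In the vessel wall MYC has been studied as a gene of smooth muscle proliferation and of endothelial growth.

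The cells came from digested arteries of wild-type mice in 3 libraries of the 10x Genomics Chromium 3' kit, all labelled week 3. The groups were vehicle, sunitinib, and sunitinib plus Yoda1, with 1 library per group. Sunitinib is an inhibitor of several receptor tyrosine kinases, among them the receptors for VEGF and PDGF, and Yoda1 is a small-molecule agonist of the mechanosensitive channel PIEZO1. The label of the third library names Yoda1 alone, and sunitinib is added from the design text of the series. Dose, age, sex and number of animals are not given in the sources used here.

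The matrices held 4491, 4506 and 5118 cell barcodes and 73901343, 66769480 and 28364203 UMIs (unique molecular identifiers, 1 per captured transcript) in the vehicle, sunitinib and sunitinib plus Yoda1 libraries. Smooth muscle made up 3595 and 3796 of the 3947 and 4148 kept cells of the first 2 libraries but 65 of 3130 in the third, which held 1077 B cells and 712 T cells. Endothelium had 151, 184 and 366 cells. The classes were defined by their markers, so the levels of these follow from the rule and are no independent check of identity. Acta2, Tagln, Myh11 and Cnn1 summed to between 35475 and 47026 CPM (counts per 1000000 UMIs of the class and library) in smooth muscle of the 3 libraries. Pecam1, Cdh5, Egfl7, Ptprb and Vwf summed to between 4615 and 8569 CPM in endothelium. Leukocyte check genes (Ptprc, Cd52, Coro1a, Laptm5 and Tyrobp) summed to 0.160, 0.0802 and 21.2 CPM in smooth muscle and to 10.2, 10.1 and 202 CPM in endothelium, in the same order of libraries. Red cell markers (Hba-a1, Hba-a2, Hbb-bs and Hbb-bt) summed to 7.61, 1.38 and 7064 CPM in smooth muscle and to 8.43, 3.20 and 42258 CPM in endothelium, and were far higher in the third library. The libraries shared few barcodes, 3 between vehicle and sunitinib, 3 between vehicle and sunitinib plus Yoda1, and 8 between the other pair. The third library was made with a later version of Cell Ranger and differed in cell make-up, so values that set it against the others stand apart below.

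The E-box that MYC and MAX bind most strongly reads CACGTG, which is its own reverse complement, and a weaker variant reads CACGCG. Both were searched on both strands in windows from 250 bases before to 50 bases after the RefSeq start of each gene, a table with an entry for 7 of the 10 genes. It held none for Myc, Srm and Npm1. CACGTG was found in the window of Slc25a33, with its first base 8 bases before the RefSeq start. CACGCG was found in the windows of Odc1, at 180 and 101 bases before the start, and of Nolc1, at 25 bases before it. The windows of Ncl, Nop56, Nop58 and Polr1b held neither. Of all 32851 windows, 7.15% held CACGTG and 9.27% held CACGCG. The 3 windows with a match, and that of Ncl as one without, are shown as stretches of 120 bases that end just before the start, 5′ to 3′ on the gene's strand, with the matches in capitals, as they read on that strand (RefSeq, GRCm38.p6).
Slc25a33: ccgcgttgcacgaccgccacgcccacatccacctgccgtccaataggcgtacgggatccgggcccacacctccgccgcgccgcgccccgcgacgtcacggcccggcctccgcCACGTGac
Odc1: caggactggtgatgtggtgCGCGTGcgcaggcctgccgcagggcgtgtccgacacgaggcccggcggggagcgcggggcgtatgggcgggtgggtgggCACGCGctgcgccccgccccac
Nolc1: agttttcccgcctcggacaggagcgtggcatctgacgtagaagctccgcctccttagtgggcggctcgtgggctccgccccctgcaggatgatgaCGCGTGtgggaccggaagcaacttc
Ncl: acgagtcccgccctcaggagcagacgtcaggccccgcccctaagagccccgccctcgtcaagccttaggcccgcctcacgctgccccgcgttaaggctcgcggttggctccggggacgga
They lie at chr4:149774268-149774387 on the minus strand for Slc25a33, chr12:17544674-17544793 on the plus strand for Odc1, chr19:46075727-46075846 on the plus strand for Nolc1 and chr1:86359456-86359575 on the minus strand for Ncl. The stretch of Odc1 ends just before its GENCODE start, which lies upstream of the RefSeq start from which its matches are counted. The other 3 end at the RefSeq start. For Slc25a33 the GENCODE start (149774277) also lies upstream of the RefSeq start, so its match falls within the GENCODE span of the gene. A match describes the letters and shows no binding, and sequence outside the windows was not searched.

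Myc (chr15:61985391-61990374, plus strand, GRCm38 with the GENCODE vM21 annotation, as for all genes here) gave 2979 UMIs or 43.3 CPM in smooth muscle of the vehicle library, 702 UMIs or 11.3 CPM in that of the sunitinib library, and 4 UMIs or 4.03 CPM in the 65 smooth muscle cells of the third. The log2 ratio of sunitinib to vehicle was -1.94 (95% interval -2.06 to -1.82). All intervals are exact and cover counting error only, and since each group is 1 library no test of the treatment can be made. Of the 12673 genes with at least 50 UMIs in the 2 sums, 0.134% had a lower ratio.

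Fewer cells showed the transcript, and those that did held fewer copies of it. With every smooth muscle cell thinned to 5000 UMIs, a Myc UMI was present in 508 of 3540 cells (14.4%, exact 95% interval 13.2 to 15.5%) of the vehicle library. In the sunitinib library it was present in 150 of 3484 cells (4.31%, 3.66 to 5.03%). Thinning left out 55 and 312 shallower cells, and without it the shares were 32.6% and 11.0%. Cells with at least 2 Myc UMIs made up 3.62% of the vehicle cells and 0.574% of the sunitinib cells. No class here is known to lack Myc, so no share of free RNA could be set beside these.

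Odc1 (chr12:17544794-17551505), which encodes ornithine decarboxylase, the rate-limiting enzyme of polyamine synthesis, stood at 121 CPM in vehicle smooth muscle and 117 CPM in sunitinib smooth muscle. Its log2 ratio was -0.051 (-0.097 to -0.0058). Srm (chr4:148591503-148594993), spermidine synthase, the next step of that pathway, stood at 29.4 and 28.1 CPM, a ratio of -0.063 (-0.16 to 0.030). Both polyamine genes were thus nearly level between libraries that differed 3.84-fold in Myc transcript.

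The nucleolar genes lay within 1.5-fold as well, most of them lower. Ncl (chr1:86344719-86359400), nucleolin, which takes part in the transcription and processing of ribosomal RNA, stood at 456 CPM with vehicle and 400 CPM with sunitinib, a log2 ratio of -0.19 (-0.22 to -0.17). Nolc1 (chr19:46075863-46085530), a chaperone of small nucleolar ribonucleoproteins, stood at 39.9 and 32.9 CPM, a ratio of -0.28 (-0.36 to -0.20). Nop56 (chr2:130274430-130279313) and Nop58 (chr1:59684971-59719044) encode core proteins of the box C/D particles that methylate ribosomal RNA. Nop56 stood at 43.5 and 40.1 CPM, a ratio of -0.12 (-0.19 to -0.039). Nop58 stood at 49.5 and 40.7 CPM, a ratio of -0.28 (-0.36 to -0.21). Npm1 (chr11:33152287-33163206), nucleophosmin, a nucleolar chaperone with many processed pseudogene copies, stood at 518 and 534 CPM, a ratio of 0.044 (0.022 to 0.066). Its sign turned with the scaling, to -0.039 with trimmed mean factors and -0.057 with median-of-ratios factors. Polr1b (chr2:129100995-129126594), which encodes the second largest subunit of RNA polymerase I, was the lowest of the genes, at 3.05 and 3.24 CPM (0.086, -0.20 to 0.37). Of the 12673 genes, 10.2% had a lower ratio than Nop58, 10.3% than Nolc1, 14.9% than Ncl and 20.9% than Nop56. The shares were 42.1% for Npm1 and 49.7% for Polr1b.

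Slc25a33 (chr4:149744036-149774277, minus strand), a mitochondrial carrier of pyrimidine nucleotides, went the other way. It gave 1235 UMIs or 17.9 CPM in vehicle smooth muscle and 3373 UMIs or 54.1 CPM in sunitinib smooth muscle, a log2 ratio of 1.59 (1.498 to 1.69). Of the 12673 genes, 99.9% had a lower ratio. A UMI of it was present in 7.80% of the vehicle cells and 22.2% of the sunitinib cells thinned to 5000 UMIs (26.2% and 49.1% before thinning). Overlap with a gene on the other strand, Gm13068, is annotated for it, and Nop56 overlaps Idh3b on the other strand.

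Of the 10 genes, 1 stood at least 1.5-fold higher and 1 at least 1.5-fold lower with sunitinib in smooth muscle, where 5.59% and 3.56% of all 12673 genes did. The median log2 ratio of the 9 targets was -0.063, and that of all genes 0.088. Relative to the median of all genes, 7 targets lay lower, Polr1b lay level and Slc25a33 lay higher.

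**Figure D1:**
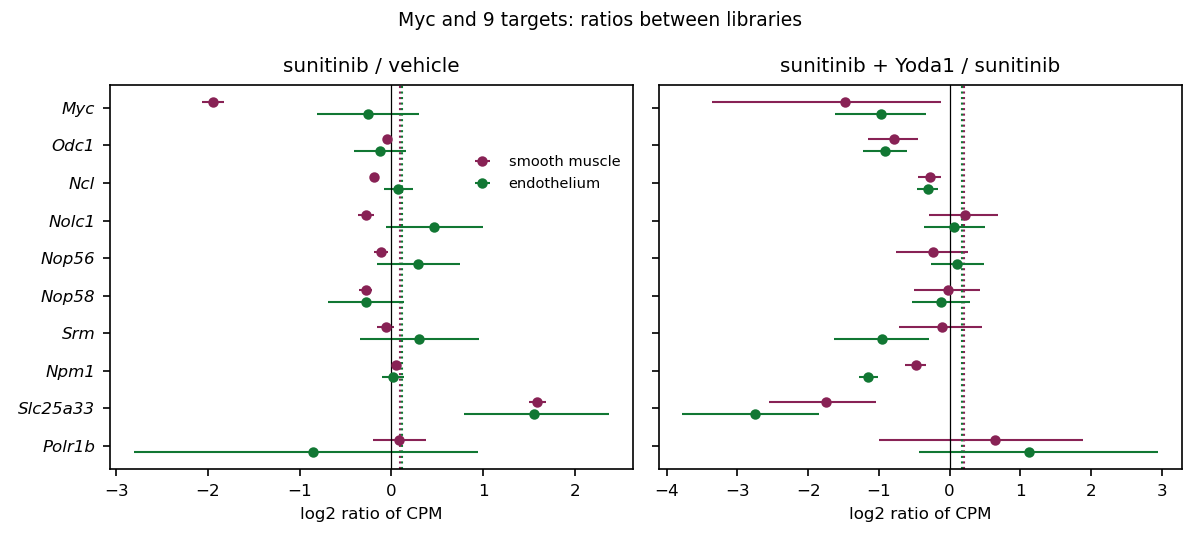
Log2 ratio of CPM (x axis) for Myc and its 9 targets (y axis) between summed cells of smooth muscle (purple) and endothelium (green), for sunitinib against vehicle on the left and sunitinib plus Yoda1 against sunitinib on the right. Bars are exact 95% intervals of the counts, dotted lines the median of all genes. On the left Myc lies at -1.94 in smooth muscle and -0.25 in endothelium, and Slc25a33 at 1.59 and 1.55.

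In endothelium Slc25a33 showed a ratio of like size, and that of Myc depended on which cells were counted. Slc25a33 gave 19 UMIs or 11.4 CPM in the vehicle library and 63 UMIs or 33.6 CPM in the sunitinib library, a log2 ratio of 1.55 (0.79 to 2.38). Myc gave 58 UMIs or 34.9 CPM and 55 UMIs or 29.3 CPM, a ratio of -0.25 (-0.81 to 0.31). With cells that met both class rules kept it was -0.82 and with a stricter class rule -0.77, both past 1.5-fold lower, while without the top 5% of cells by UMIs it was 0.20. The interval of Myc in endothelium includes 0 and lies apart from that in smooth muscle, -2.06 to -1.82, and whether the treatment acts differently on the 2 classes cannot be tested with 1 library per group. A Myc UMI was present in 14 of 116 vehicle endothelial cells thinned to 5000 UMIs (12.1%) and in 15 of 123 sunitinib ones (12.2%).

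The endothelial targets other than Slc25a33 lay between -0.28 for Nop58 (62.0 and 51.2 CPM) and 0.46 for Nolc1 (31.3 and 43.2 CPM), apart from Polr1b. Every one of their intervals included 0. Polr1b rested on 8 and 5 UMIs, under the minimum of 50, and had a ratio of -0.85 (-2.81 to 0.94). Of the 10 genes, 1 (Slc25a33) passed the minimum and stood at least 1.5-fold higher, beside 8.16% of 6755 genes, and none with 50 UMIs stood that much lower, beside 4%. The median over all 9 targets was 0.076 (0.18 without Polr1b, which missed the minimum), beside 0.11 for all genes that met it. It turned to -0.016 with trimmed mean and -0.023 with median-of-ratios factors.

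Addition of Yoda1 was compared in 65 smooth muscle and 366 endothelial cells, and in both classes Slc25a33 stood far below its sunitinib level. In smooth muscle it gave 16 UMIs or 16.1 CPM against 54.1 CPM with sunitinib, a log2 ratio of -1.75 (-2.55 to -1.04). The vehicle level was 17.9 CPM, within the interval of the third library (9.21 to 26.2 CPM). In endothelium it gave 12 UMIs or 4.99 CPM against 33.6 CPM, a ratio of -2.75 (-3.78 to -1.85). That level lay below the 11.4 CPM of the vehicle endothelium, with intervals that overlapped. Genes in the intron length quintile of Slc25a33 had median log2 ratios to vehicle of 0.38 in smooth muscle and 0.27 in endothelium. These were not taken off here.

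Myc was lower in both classes of the third library than with sunitinib alone, and lower than with vehicle. In smooth muscle its 4 UMIs gave a log2 ratio to sunitinib of -1.48 (-3.36 to -0.12). They lay in 3.08% of the 65 cells, and the interval takes them as independent counts. In endothelium it gave 36 UMIs or 14.96 CPM, a ratio to sunitinib of -0.97 (-1.62 to -0.34), or -0.54 after the intron adjustment given below. Immediate early genes, 16 in number, were low there too, at a summed 5366 CPM in smooth muscle against 14429 CPM with sunitinib and 19832 CPM with vehicle, and their part in the level of Myc there was not tested. With cells that held a leukocyte check UMI left out, the ratio of Myc was -1.24 in smooth muscle and -1.06 in endothelium.

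Haemoglobin was high in the third library, and the ratios were recomputed without it, a choice made after the data were seen. With cells of 1% or more haemoglobin UMIs left out, 63 smooth muscle and 348 endothelial cells of that library stayed. Slc25a33 then had ratios of -1.87 and -2.60. Myc had -0.86 (-1.52 to -0.22) in endothelium, and in smooth muscle 2 of its 4 UMIs were left, a ratio of -2.41 (-5.46 to -0.55). With haemoglobin UMIs taken out of all cells Myc had -1.47 and -0.91.

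Among the other targets Odc1 and Npm1 were lower in both classes of the third library. Odc1 stood at 67.5 CPM in smooth muscle (-0.79, -1.16 to -0.44) and 60.3 CPM in endothelium (-0.91, -1.23 to -0.60). Npm1 stood at 384 CPM in smooth muscle (-0.48, -0.63 to -0.33) and 288 CPM in endothelium (-1.15, -1.28 to -1.01). Srm stood at 13.7 CPM in endothelium (-0.96, -1.64 to -0.30) and at 26.2 CPM in smooth muscle (-0.10, -0.72 to 0.45). Ncl was at 329 and 312 CPM, ratios of -0.28 and -0.31, and the ratios of Nolc1, Nop56 and Nop58 lay between -0.23 and 0.22 in both classes.

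At least 1.5-fold lower with both compounds than with sunitinib were 3 of the 10 genes in smooth muscle, where 11.1% of 11890 genes were, and 5 in endothelium, where 20.5% of 8342 genes were. Higher by that much was Polr1b in smooth muscle, on 5 UMIs, where 32.6% of genes were, and in endothelium none with 50 UMIs, where 34.4% were. For genes without a UMI in smooth muscle of the third library the floor stood at 3.02 CPM. A gene below that level with sunitinib and absent there thus gets a ratio above 0. Slc16a1, with 239 UMIs with sunitinib and 0 with both compounds, was held at -0.34. Shares, counts and medians over all genes that involve this smooth muscle may therefore rest in part on the floor. How far they do was not tested. Each of the 10 genes had UMIs there. The medians over the 9 targets were -0.23 and -0.31, the latter -0.61 without Polr1b, which missed the minimum in endothelium, beside 0.20 and 0.18 for all genes that met it. These ratios moved with intron length over the whole genome. Genes in the shortest and longest quintiles by annotated intron length had median ratios of -0.098 and 0.89 in smooth muscle and -0.43 and 1.26 in endothelium. Between sunitinib and vehicle, made with 1 version of the software, the same medians were 0.11 and 0.047 in smooth muscle. Myc, Odc1, Nop56 and Srm were in the quintile of shortest introns in each of these 4 comparisons. With the median of their quintile taken off Myc had a ratio of -1.38 in smooth muscle and of -0.54 in endothelium, where it no longer passed 1.5-fold. In endothelium the same step also brings Odc1 (-0.91) and Srm (-0.96) within 1.5-fold, so the count of 5 there depends on it. Npm1 and Slc25a33 stay past it in endothelium, as Odc1 (-0.79) does in smooth muscle. The third library also differed in make-up, with 65 smooth muscle cells among 3130 kept. The 5 endothelial markers summed to 4615 CPM in its endothelium, against 8569 CPM with sunitinib. Software version, cell make-up, cell subtype and treatment cannot be told apart here.

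Across the 10 pairs of a class and a library with at least 50 cells, Myc spanned 17.7-fold and most targets far less. It was highest in B cells of the third library (71.2 CPM, 64.6 to 78.3). Below them followed vehicle smooth muscle (43.3), vehicle endothelium (34.9), sunitinib endothelium (29.3), T cells (26.3) and fibroblasts (22.8). The lowest were endothelium with both compounds (14.96), sunitinib smooth muscle (11.3), macrophages (8.67) and smooth muscle with both compounds (4.03). Of the neighbours in this order B cells alone had an interval apart from the next.

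Slc25a33 spanned 10.8-fold and was highest in the 2 classes of the sunitinib library, 54.1 CPM in smooth muscle and 33.6 CPM in endothelium. Its other 8 levels lay between 4.99 and 17.9 CPM, with intervals that overlapped between neighbours. The remaining targets spanned between 1.85-fold (Ncl) and 4.54-fold (Srm). T cells held the highest level of Ncl (504 CPM), Nolc1 (60.5 CPM), Nop56 (79.2 CPM), Nop58 (91.5 CPM), Npm1 (1019 CPM) and Polr1b (9.61 CPM). Their interval lay apart from the next for Ncl, Nop58 and Npm1 and overlapped it for Nolc1, Nop56 and Polr1b. The Myc level of T cells came after those of B cells, vehicle smooth muscle and endothelium of the first 2 libraries. Srm was highest in fibroblasts, at 62.3 CPM.

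The genes with the pattern most like that of Myc over these 10 pairs, by Pearson r of log2(CPM + 10) among 9935 genes, were H2afx (0.85), Ints13 (0.84), Trp53bp1 (0.83), Rbm48 (0.81) and Matr3 (0.81). Of the targets Ncl came nearest (0.57, place 208), followed by Nop56 (0.54, place 287), Nop58 (0.54, place 289) and Npm1 (0.50, place 420). Nolc1 (0.33, place 1137) and Odc1 (0.20, place 2042) stood further down. Srm (-0.050, place 4517) and Slc25a33 (-0.18, place 5988) had values below 0, and Polr1b, under 20 CPM in all pairs, was not ranked. The points share libraries and depth, 6 of the 10 come from the third library, and cell type and library cannot be told apart for the 4 classes it alone supplied.

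**Figure D2:**
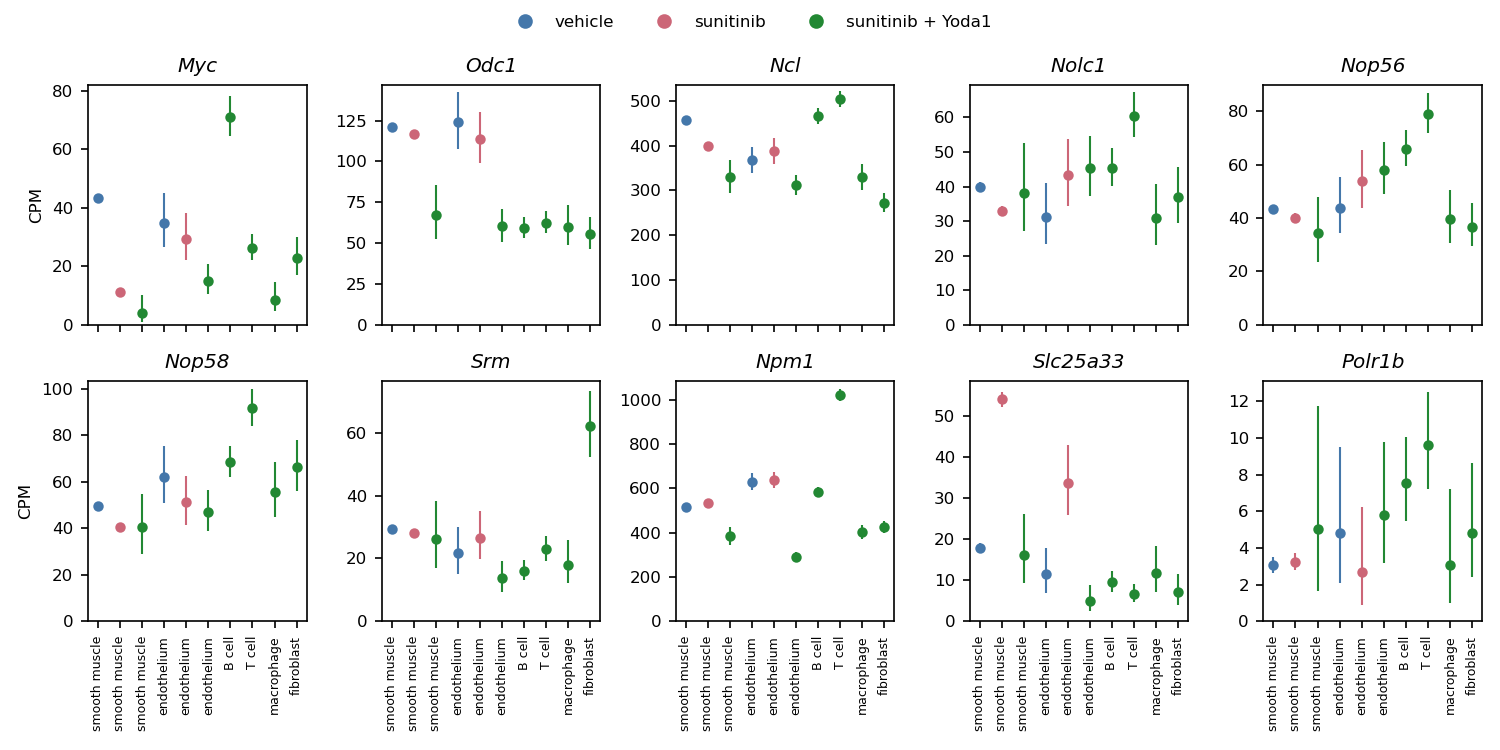
CPM (y axis, from 0) of each gene in the class and library pairs with at least 50 cells (x axis), coloured by library, with exact 95% intervals of the counts. Myc is highest in B cells (71.2 CPM), Slc25a33 in the 2 sunitinib points (54.1 and 33.6 CPM), and 6 of the other targets in T cells.

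Within 1 library the targets could be set against Myc from cell to cell. Vehicle smooth muscle cells with a Myc UMI at 5000 UMIs, 508 in number, were compared with the 3032 without, and 150 such sunitinib cells with 3334. The median log2 ratio over the 9 targets was 0.049 in the vehicle library and 0.055 in the sunitinib library (0.15 without Polr1b, which missed the minimum there), beside -0.0072 and -0.017 for all genes that met it. Before thinning, the cells with a Myc UMI were deeper, with medians of 18773 against 16693 UMIs in the vehicle library and 18775.5 against 16736.5 in the other.

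Odc1 was the one target whose interval lay above 0 in both libraries. It stood at 131 CPM in vehicle cells with a Myc UMI and 111 CPM in those without (0.24, 0.067 to 0.41). In the sunitinib cells it stood at 144 and 112 CPM (0.36, 0.065 to 0.64). Among all genes that met the minimum, 84.1% in the vehicle and 83.2% in the sunitinib library had a lower ratio than Odc1, so its place was not extreme. Slc25a33 stood higher in vehicle cells with Myc, at 24.4 against 15.2 CPM (0.69, 0.26 to 1.10), but not in sunitinib cells, at 46.7 against 52.8 CPM (-0.18, -0.71 to 0.31). The other targets had intervals that included 0 in both, among them Ncl (0.049 and 0.055) and Npm1 (0.047 and -0.041). Seen from the other side, Myc stood at 44.9 CPM in vehicle cells with a Slc25a33 UMI and 37.9 CPM in those without (0.25, -0.15 to 0.63), and at 9.81 and 10.2 CPM in sunitinib cells (-0.055, -0.61 to 0.47).

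Of the 9 targets Slc25a33 stood at least 1.5-fold higher in the vehicle cells with Myc, where 2.39% of 9928 genes did, and Polr1b at least that much lower on 4 UMIs, where 5.37% did. In the sunitinib library no target with 50 UMIs passed either limit, where 7.49% and 11.8% of 10078 genes did. All 16 immediate early genes lay above 0 in both libraries, with medians of 0.42 and 0.59, where 4845 of 9928 and 4806 of 10078 genes did. Of the 16, 2 and 8 stood at least 1.5-fold higher, where 2.39% and 7.49% of genes did. Over the thinned cells Pearson r between Myc and a target lay between -0.025 and 0.037 in the vehicle library and between -0.019 and 0.034 in the sunitinib library. Pairs of targets gave -0.032 to 0.033 and -0.028 to 0.035. Counts this sparse hold r near 0, so these values neither show nor exclude a relation.

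**Figure D3:**
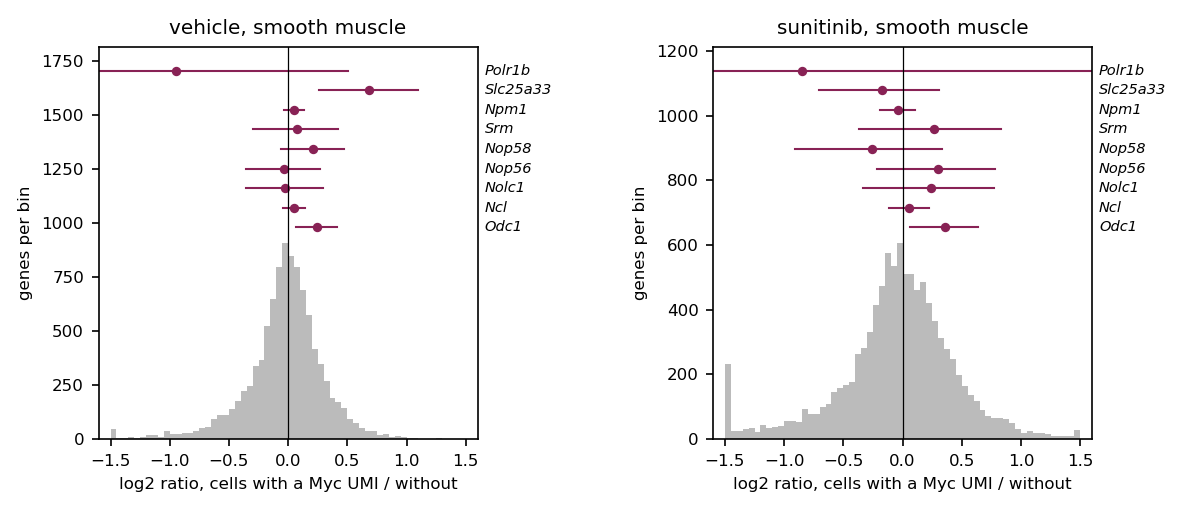
Genes per bin (y axis) by log2 ratio of cells with a Myc UMI to cells without (x axis, end bins hold all values beyond), in vehicle (left) and sunitinib (right) smooth muscle thinned to 5000 UMIs, with the 9 targets as points and exact 95% intervals (cut at the axis limits). Apart from Slc25a33 (0.69 and -0.18) and Polr1b, the targets lie between -0.26 and 0.36.

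Myc followed the immediate early genes, whereas most of its targets hardly did. These are genes such as Fos, Egr1 and Atf3, known to be induced within minutes by growth factors, stretch and tissue digestion. Smooth muscle cells of both libraries were divided into common quintiles by the CPM of the 16 genes, a division made after the data were seen. From the lowest to the highest quintile Myc stood at 1.84, 17.9, 41.2, 55.9 and 60.3 CPM in vehicle cells and at 2.01, 4.58, 13.6, 17.3 and 26.8 CPM in sunitinib cells. The log2 ratio of the highest quintile to the lowest was 5.03 (4.31 to 5.88) with vehicle and 3.74 (3.14 to 4.40) with sunitinib. For Odc1 it was 0.79 and 0.41, for Ncl 0.41 and 0.30, for Nolc1 0.32 and 0.32, and for Srm -0.38 and -0.47. The 9 targets summed, mostly Npm1 and Ncl, went from 1142 to 1365 CPM with vehicle and from 1206 to 1307 CPM with sunitinib.

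Within a quintile, the libraries could be compared at a like immediate early level. In the lowest quintile Myc did not differ beyond its interval (log2 ratio of sunitinib to vehicle 0.13, -0.85 to 1.16, on 15 and 25 UMIs). In the other 4 quintiles it was lower with sunitinib, at -1.96, -1.599, -1.69 and -1.17. The unweighted mean over the quintiles was -1.26, in which the sparse lowest quintile counts as much as each of the others. The lowest quintile held 565 vehicle and 913 sunitinib cells, and the highest 1005 and 474.

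The ratio of Slc25a33 ran the other way, from 2.62 (2.27 to 2.99) in the lowest quintile through 2.06, 1.55 and 1.30 to 1.20 (0.99 to 1.41) in the highest. In vehicle cells it was higher in the highest quintile than in the lowest (log2 ratio 1.14, 0.78 to 1.52), and in sunitinib cells slightly lower (-0.28, -0.46 to -0.088). Nolc1 lay between -0.27 and -0.22 in all 5 quintiles. Odc1 was higher with sunitinib in the lowest quintile (0.34, 0.20 to 0.47) and near level in the upper 3. The part of the immediate early level in the ratios of the whole class was not tested beyond these values.

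**Figure D4:**
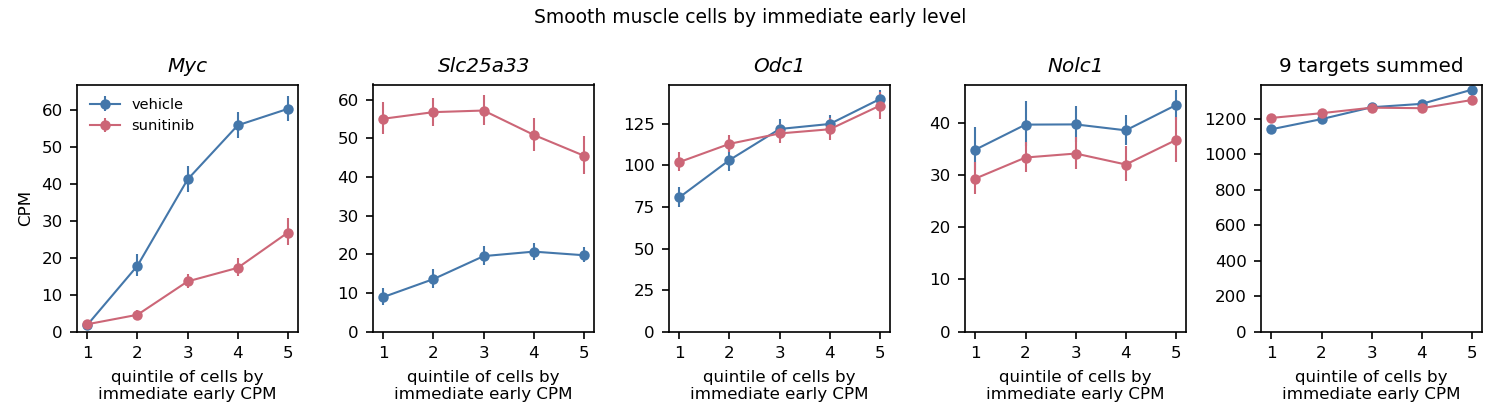
CPM (y axis, from 0) of Myc, Slc25a33, Odc1, Nolc1 and the sum of the 9 targets in smooth muscle cells, by quintile of cells in rising order of immediate early CPM (x axis), in the vehicle (blue) and sunitinib (red) libraries, with exact 95% intervals. Myc climbs from 1.84 to 60.3 CPM in vehicle cells and from 2.01 to 26.8 CPM in sunitinib cells, while the summed targets stay between 1142 and 1365 CPM.

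Cells were also divided by whether they held a UMI of 9 posterior Hox genes, which mark position along the vessel. Vehicle Myc was higher in cells without one, with intervals that lay apart, and the ratio to sunitinib was -1.82 with and -2.08 without such a UMI. Cells with one made up 54.3% of vehicle and 58.0% of sunitinib smooth muscle. Myc stood at 39.8 and 11.2 CPM among them and at 47.8 and 11.3 CPM among the others. Slc25a33 stood at 17.4 and 53.7 CPM among them and at 18.6 and 54.7 CPM among the others.

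Smooth muscle showed no gene past 1.5-fold with sunitinib in lists of ribosome assembly, RNA polymerase I, translation initiation, nucleotide synthesis and the MAX network. Mitochondrial and glycolysis lists had several lower. Over all 12673 genes 3.56% stood at least 1.5-fold lower and 5.59% higher, so lists of 12 or 14 genes with none lie near these shares. Of 37 other genes of nucleolar ribosome assembly none passed 1.5-fold and the median log2 ratio was -0.054, with Gnl3 (-0.47), a nucleolar GTPase, and Rrp12 (-0.41) lowest and Nhp2 (0.33) and Rrs1 (0.29) highest. Of 14 genes of RNA polymerase I and its factors none passed it and the median was 0.029, from Taf1d (-0.50) and Polr1a (-0.31), the largest subunit, to Ttf1 (0.27) and Twistnb (0.32). Of 12 translation initiation genes none passed it and the median was -0.066, from Eif1a (-0.58) and Eif4e (-0.38), the cap-binding protein, to Eif4b (0.29) and Eif4ebp1 (0.43), an inhibitor of EIF4E.

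Polyamine metabolism held 1 of 13 genes at least 1.5-fold lower, Azin1 (122 and 76.5 CPM, -0.68, -0.73 to -0.63), whose protein protects ornithine decarboxylase from its inhibitor antizyme. Amd1, which supplies the aminopropyl donor, was at -0.37, while Oaz2, an antizyme, was at 0.16 and Paox, a polyamine oxidase, at 0.47. The median of the list was -0.023. Azin1 was at -0.39 in endothelium.

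Of 20 measured genes of nucleotide synthesis none passed 1.5-fold and the median was 0.10. Mthfd2, a mitochondrial enzyme of folate metabolism, was highest (26.7 and 40.0 CPM, 0.58), followed by Dhodh (0.48). Ctps, which makes CTP, was lowest in smooth muscle (-0.31, -0.37 to -0.24), before Umps (-0.16). In endothelium Ctps stood at 59.6 CPM with vehicle and 147 CPM with sunitinib (1.30, 0.96 to 1.64).

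Among 19 mitochondrial carriers and biogenesis genes 4 stood at least 1.5-fold lower (beside 3.56% of all genes), none higher, and the median was 0.11. Slc25a25, a calcium-binding ATP-Mg carrier, was lowest (25.4 and 11.6 CPM, -1.13), followed by Pprc1 (-0.84), a coactivator of mitochondrial genes. Slc25a32, a folate carrier, was highest (0.46), before Ppargc1a (0.34), so no other carrier of the list matched the 1.59 of Slc25a33. In glycolysis and amino acid uptake 3 of 13 were at least 1.5-fold lower (beside 3.56%), led by Slc16a1 (-1.22), a lactate transporter, and Hk2 (101 and 49.5 CPM, -1.03), a hexokinase. The median there was -0.035, and Slc1a5 (0.23) and Pkm (0.20) were highest.

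The partners and opponents of MYC differed little. The MAX network had 8 of 11 genes measured, none past 1.5-fold, and a median of 0.11, with Mxi1 (0.46) and Mxd4 (0.32), MAX-binding antagonists of MYC, highest and Mxd1 (-0.14) and Mnt (-0.11) lowest. Of 13 genes of MYC cofactors and turnover 1 was at least 1.5-fold lower, Pim1 (90.5 and 53.8 CPM, -0.75), a kinase, before Trrap (-0.35), with Skp2 (0.38) and Bin1 (0.12) highest and a median of -0.072.

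Of 7 genes that MYC is known to repress none stood at least 1.5-fold higher with sunitinib, 3 stood at least that much lower (beside 3.56% of all genes), and the median was -0.55. Gadd45b, a stress-induced gene, stood at 782 and 461 CPM (-0.76), and Cdkn1a, the p21 inhibitor of the cell cycle, at 288 and 178 CPM (-0.70). Cdkn1b (0.051) and Ndrg2 (0.19) were the highest. The immediate early list had the like median of -0.55, with 8 of 16 at least 1.5-fold lower (beside 3.56%), from Fosl1 (-2.33) and Egr3 (-0.98) to Jun (-0.20) and Dusp1 (-0.14), and in endothelium its median was -0.23 over 14 measured genes. Of 13 measured cell cycle genes 1 was lower, E2f1, on 66 and 30 UMIs (-0.995), before Pcna (-0.34), and Mcm2 (0.36) and Ccnd1 (0.45) were highest, with a median of -0.0025. Of the 9 posterior Hox genes Hoxb7 (0.60) and Hoxa7 (0.59) stood at least 1.5-fold higher and Hoxa10 (-0.26) and Hoxc10 (-0.13) were lowest.

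**Figure D5:**
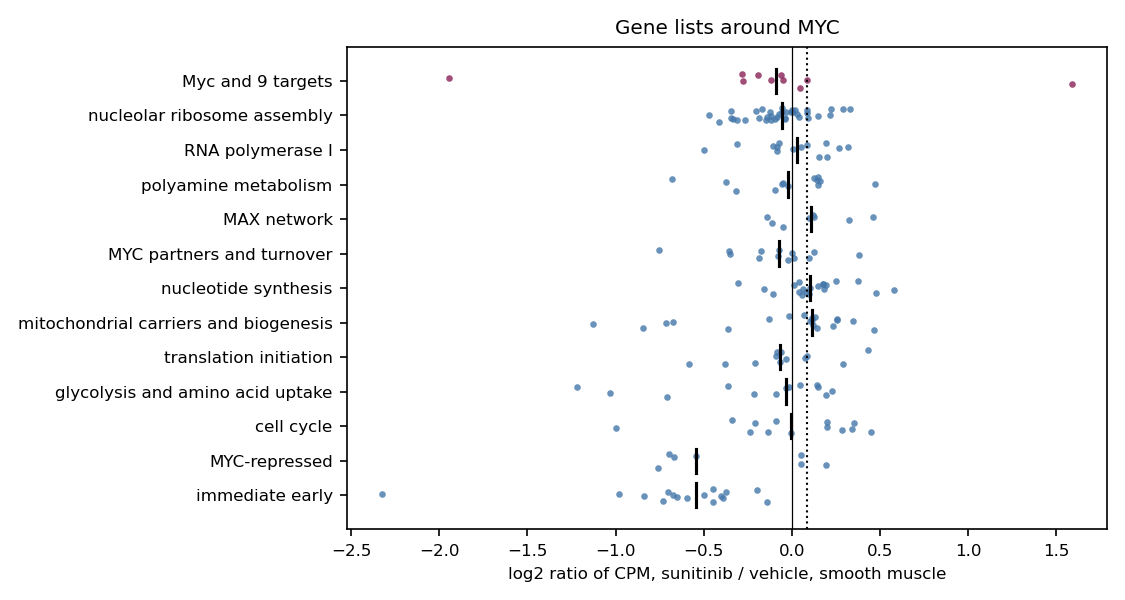
Log2 ratio of CPM between sunitinib and vehicle smooth muscle (x axis) for each measured gene of the lists around MYC (y axis, points spread at random within a row), with the list median as a black bar and the median of all genes as a dotted line. Myc (-1.94) and Slc25a33 (1.59) lie far outside the other growth lists, while the MYC-repressed and immediate early lists both have medians of -0.55.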

How the data were processed

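The values the authors deposited are UMI counts, unscaled, in 1 matrix of genes by barcodes per library. Per the file headers, Cell Ranger 7.1.0 made that of the third library and 6.0.0 the others. The build mm10 and Seurat are named in the submitters' processing notes, and no source used here says whether intronic reads were counted. Barcodes had to hold 500 UMIs and 300 detected genes, with no more than 15% of UMIs mitochondrial. Smooth muscle needed at least 2% of UMIs from its 4 markers and endothelium at least 3 of 5 markers. The 19, 22 and 0 cells that met both rules were put in neither class. Doublets were not called, and the labels name no removal.

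UMIs were summed per class and library (Python 3.11.15, numpy 2.4.6, scipy 1.17.1) and given as CPM with exact Poisson intervals. Log2 ratios carry exact conditional binomial intervals at 95%, and shares exact Clopper-Pearson ones. No p-value was computed, since each group is 1 library. Ratios over all genes and list counts used genes with at least 50 UMIs in the 2 sums, and "past 1.5-fold" is a size, not a test. A count of 0 was set to a floor of 3 counts. Medians over the 9 targets include all 9. The code was tested on simulated data.

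The 10 genes and the 13 other gene lists were chosen with earlier results of these data known. Named are the 10 genes, the 2 highest and 2 lowest of each list by ratio in smooth muscle, and the 5 genes most like Myc. Ctps and Azin1 in endothelium were singled out after their values were seen. Gene spans and intron lengths come from GENCODE vM21, which matched 32158 of 32285 genes, and promoter windows from RefSeq. Alternatives changed the scaling, depth, cell filters and class rules.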

Additional observations from a re-analysis of the deposited data

Results flagged for a closer look

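Several targets had ratios of opposite sign in smooth muscle and endothelium, and with 1 library per group the difference was not tested. For sunitinib against vehicle the log2 ratios in smooth muscle and endothelium were -0.19 and 0.076 for Ncl, -0.28 and 0.46 for Nolc1, -0.12 and 0.29 for Nop56, and -0.063 and 0.30 for Srm. For Polr1b they were 0.086 and -0.85, the latter on 8 and 5 UMIs. For sunitinib plus Yoda1 against sunitinib Nop56 had -0.23 and 0.11. The endothelial intervals of all of these included 0. The endothelial ratio of Ncl became -0.016 with trimmed mean and -0.023 with median-of-ratios factors, so its opposite sign was lost with both.

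Myc was also present in fibroblasts of the first 2 libraries, too few to enter the comparisons. It stood at 45.6 CPM in the 24 vehicle fibroblasts and at 53.3 CPM in the 20 sunitinib fibroblasts.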

How the results depend on the processing

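No paired analysis was possible because each group has 1 library. The log2 ratio of Myc between sunitinib and vehicle smooth muscle lay between -2.46 and -1.26 over 14 alternatives. It was -2.46 with cells thinned to 2000 UMIs, -2.18 at no more than 5% mitochondrial UMIs and -2.17 with stricter class rules. In cells with and without a posterior Hox UMI it was -1.82 and -2.08. It was -1.79 at 5 to 10% mitochondrial UMIs and -1.26 as the unweighted mean over immediate early quintiles, alternatives chosen after seeing the data. In endothelium it lay between -0.82, with cells that met both class rules kept, and 0.20. The median of the 9 targets became -0.16 in smooth muscle with median-of-ratios factors. Between both compounds and sunitinib in endothelium it became -0.47 with trimmed mean and -0.51 with median-of-ratios factors. In cells with a Myc UMI it was 0.14 (at least 2 Myc UMIs) and 0.16 (cells with posterior Hox) with vehicle, and 0.35 (thinned to 2000) and -0.17 (at least 2 Myc UMIs, 20 cells) with sunitinib.

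With no UMI minimum the counts of genes past 1.5-fold for sunitinib against vehicle became 1909 higher and 1486 lower in smooth muscle and 2030 and 1450 in endothelium, and for both compounds against sunitinib in endothelium 4651 and 2725. With trimmed mean and median-of-ratios factors 2950 and 2938 genes were lower with both compounds in smooth muscle, and 359 and 346 were higher with sunitinib in endothelium. Median-of-ratios factors left 452 genes higher with sunitinib in smooth muscle. Trimmed mean factors shift all ratios of sunitinib to vehicle in smooth muscle down by 0.083, and those of both compounds to sunitinib by 0.34. The cause of the other changes was not tested. Not run, for too few cells of the third library, were smooth muscle at no more than 5% mitochondrial UMIs (9 cells) and under the stricter rule (5 cells). Thinned to 2000 UMIs, its smooth muscle held 0 Myc UMIs and gave no ratio. Depth limits Polr1b throughout and Myc in the third library.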
